A study of Mus musculus with 15 samples.

Results

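The genes of glycolysis and of the response to low oxygen were followed across all 15 libraries of a mouse study of plakoglobin, the junction protein encoded by Jup. The set holds 35 genes of the 45905 listed in each table of reads per gene, taken by their symbols in the gene column: 23 glycolytic genes (glucose transporters, enzymes, their regulators and a lactate exporter) and 12 other hypoxia-responsive genes (oxygen sensors and targets). All 35 symbols were found in both tables.

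Glycolysis splits glucose into pyruvate and gains ATP without oxygen, and lactate dehydrogenase with a monocarboxylate transporter then turns the pyruvate into lactate and exports it. The oxygen sensors of the Egln family are prolyl hydroxylases. While oxygen is present they mark the alpha subunits encoded by Hif1a and Epas1 for destruction; when it is scarce these subunits are stable, pair with the partner encoded by Arnt and bind DNA at the core letters ACGTG or GCGTG. Most glycolytic genes and genes for vessel growth, mitochondrial turnover and collagen processing are known targets of these factors. The intestinal epithelium lies on a steep oxygen gradient between the blood and a nearly oxygen-free lumen, and these factors are known there for their part in barrier function. As both alpha subunits are controlled mainly at the protein level, their RNA does not report their activity.

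Poly(A) RNA was sequenced from organoids, which are epithelial structures grown in gel from mouse gut, and from mouse gut tissue, with 3 libraries in each of 5 groups. All animals carry a floxed Jup gene (JUPfl/fl). The Tamoxifen organoids, code T41, are titled as also carrying iVilCre ERT2, a Cre recombinase driven by the villin promoter of the intestinal epithelium and activated by tamoxifen, and are described as Tamoxifen. The DMSO organoids and the nativ organoids, both of code T75, are titled JUPfl/fl without Cre; DMSO is the usual solvent of tamoxifen, and nativ is used only as the group name. The gut libraries described as PG_KO are titled DSS colitis JUPfl/fl, DSS being dextran sodium sulfate, which injures the colon epithelium, and those described as ctr are titled iVilCre ERT2JUPfl/fl. Titles and descriptions of the gut libraries therefore conflict on the genotype, and the descriptions are used. Only the PG_KO libraries have DSS in their titles, so DSS as titled and the PG_KO description change together and cannot be told apart. The ages of the animals are not given. Each organoid group carries a single code, the labels do not say that its replicates were separate cultures, and p-values measure only the spread between these samples. Code, Cre and treatment change together between Tamoxifen and the other organoids and cannot be told apart.

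Depth ran between 25185053 and 30744563 reads for organoid libraries and between 23194385 and 29257641 for gut libraries, so that 3 reads in a library correspond to 0.0976 to 0.129 CPM (the reads of a gene scaled to a library of 1000000 reads), a floor that covers counting error only. Jup stood at 69.0 to 71.2 CPM in Tamoxifen, 360 to 414 CPM in DMSO and 275 to 395 CPM in nativ organoids and at 75.2 to 82.8 CPM in PG_KO and 302 to 495 CPM in ctr gut, lower in every Tamoxifen and PG_KO library than in any other. The T75 organoids go against part of their gut label. The gut transcription factor Cdx1 stood at 103 ± 5.45 CPM in Tamoxifen organoids, 0.0109 ± 0.0189 CPM in DMSO and 0.138 ± 0.126 CPM in nativ organoids (SD, n = 3 each). Cdx1 belongs to a list of 11 intestinal epithelium markers and does not stand for the whole list. Together these markers summed to 14872 to 15031 CPM in Tamoxifen, 6693 to 8100 CPM in DMSO and 8514 to 8769 CPM in nativ organoids. The 10 enterocyte markers summed to 6887 to 7682 CPM in Tamoxifen, 1.86 to 4.33 CPM in DMSO and 4.59 to 12.01 CPM in nativ organoids, with Fabp1 near 0 in both T75 groups, whereas 13 markers of stomach, bile duct and pancreas summed to 525 to 540.05 CPM in Tamoxifen, 3609.6 to 3623 CPM in DMSO and 2599.7 to 3555 CPM in nativ organoids. Of these 13 markers, 5 had 0 reads in the Tamoxifen group, 3 in DMSO and 4 in nativ. Cell cycle markers, 9 genes, summed to 963 to 1023 CPM in Tamoxifen, 284 to 395 CPM in DMSO and 387 to 410 CPM in nativ organoids. Libraries of the Tamoxifen group also differed least among themselves, with a chi-square per degree of freedom of 2.13 to 3.52 between pairs, against 27.6 to 53.6 in DMSO, 7.54 to 97.6 in nativ, 48.2 to 87.0 in PG_KO and 72.8 to 187 in ctr. These differences accompany every organoid comparison of Tamoxifen below, and their part in the results was not tested. Bulk samples do not tell fewer cells of a type from less RNA per cell.

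The core letters of the hypoxia response element are shown here for members that changed in organoids, because they are what these genes are known to share. RefSeq starts were found for 31 of the 35 members in the promoter table for GRCm38.p6 (Slc2a3, Epas1, Ndrg1 and Ero1l had no entry there). In the 250 bases before the most upstream listed start, ACGTG or GCGTG stood on either strand in 24 of the 31 (77.4%), against 38.6% of all 27025 such windows; CACGTG reads as ACGTG on both strands and counts on each. ACGTG alone stood in 48.4% of the members' windows and in 16.5% of all. The windows were not matched for base content or expression, and many members are known targets, so no conclusion is drawn from these shares. A match is no evidence of binding, and the match was about as common whatever the gene did in Tamoxifen over DMSO organoids: 6 of 7 members that rose, 8 of 11 that fell and 10 of 13 that did not pass. Stretches of 30 bases around a match are printed 5′ to 3′ on the strand of the gene, with the matches in capitals, for the 4 members that rose most and the 4 that fell most among those with a match.
Pfkfb4: tggtttgacggatgggGCGTGcttagtcca
Ankrd37: ggctgcacatgtcagtgtttgggtACGTGa
Slc16a3: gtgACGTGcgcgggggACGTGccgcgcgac
Ldha: taCACGTGggttcccgCACGTccgctgggc
Ldhb: gagagcgggggagagcGCGTGcacactcca
P4ha2: atcgcatACGTGcagcGCGTGgcggctcgg
Egln3: ttcatgtgcatctcagACGTGagatccagg
Pfkfb3: cctcctccgcgccgtgACGTGccaagctgt
The stretches lie at chr9:108991769-108991798 (plus strand, Pfkfb4), chr8:45999851-45999880 (minus, Ankrd37), chr11:120949037-120949066 (plus, Slc16a3), chr7:46845754-46845783 (plus, Ldha), chr6:142508070-142508099 (minus, Ldhb), chr11:54100839-54100868 (plus, P4ha2), chr12:54204090-54204119 (minus, Egln3) and chr2:11553976-11554005 (minus, Pfkfb3). In GENCODE M21 the Ldhb and Egln3 stretches lie between genes and those of Ldha and P4ha2 in an intron of a longer transcript of the same gene. The stretches of Pfkfb4, Ankrd37, Slc16a3 and Pfkfb3 overlap an exon of such a transcript. The stretches of Ldha, Slc16a3 and P4ha2 each hold more than 1 match. The whole window of P4ha2, which fell furthest among the 12 hypoxia-responsive genes, is given to show the spacing of its 3 matches (chr11:54100674-54100923, plus strand).
P4ha2 window: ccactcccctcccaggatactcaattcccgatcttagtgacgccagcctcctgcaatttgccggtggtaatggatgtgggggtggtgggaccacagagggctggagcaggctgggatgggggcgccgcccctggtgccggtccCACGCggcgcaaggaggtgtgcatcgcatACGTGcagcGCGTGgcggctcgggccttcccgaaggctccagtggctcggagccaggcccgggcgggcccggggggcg
No ACGTG or GCGTG was found in the window of Vegfa, the best known target of the set.

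Glycolytic genes took a large part of every library. Their 23 genes summed to 2.10% ± 0.04 of all reads in Tamoxifen, 1.89% ± 0.39 in DMSO and 2.32% ± 0.15 in nativ organoids, and to 1.501% ± 0.25 in PG_KO and 1.05% ± 0.07 in ctr gut (SD, n = 3 each). The 12 other hypoxia-responsive genes summed to 0.289% ± 0.003 in Tamoxifen, 0.415% ± 0.131 in DMSO and 0.522% ± 0.020 in nativ organoids, and to 0.132% ± 0.039 in PG_KO and 0.114% ± 0.004 in ctr gut. DMSO replicate 1 was the low library of its group, with 1.46% for the glycolytic genes. Per kilobase of exon (RPKM, CPM divided by the combined exon length in kilobases, which understates genes with long rare exons), Aldoa, Eno1 and Ldha were the more abundant isoenzymes in both organoids and gut. Aldoa stood at 1215 ± 29.8 RPKM and Aldoc at 53.4 ± 1.69 RPKM in Tamoxifen organoids, Eno1 at 836 ± 15.9 and Eno2 at 0.213 ± 0.0520 RPKM, and Ldha at 641 ± 16.7 and Ldhb at 2.04 ± 0.570 RPKM. In ctr gut the same genes stood at 504 ± 49.8, 3.97 ± 1.46, 401 ± 6.24, 6.65 ± 4.46, 283 ± 49.7 and 14.9 ± 10.1 RPKM, in that order. The hexokinases had opposite orders, with Hk1 at 37.8 ± 1.07 and Hk2 at 17.6 ± 0.727 RPKM in Tamoxifen organoids, and 47.2 ± 11.3 and 108 ± 45.2 RPKM in ctr gut.

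**Figure D1:**
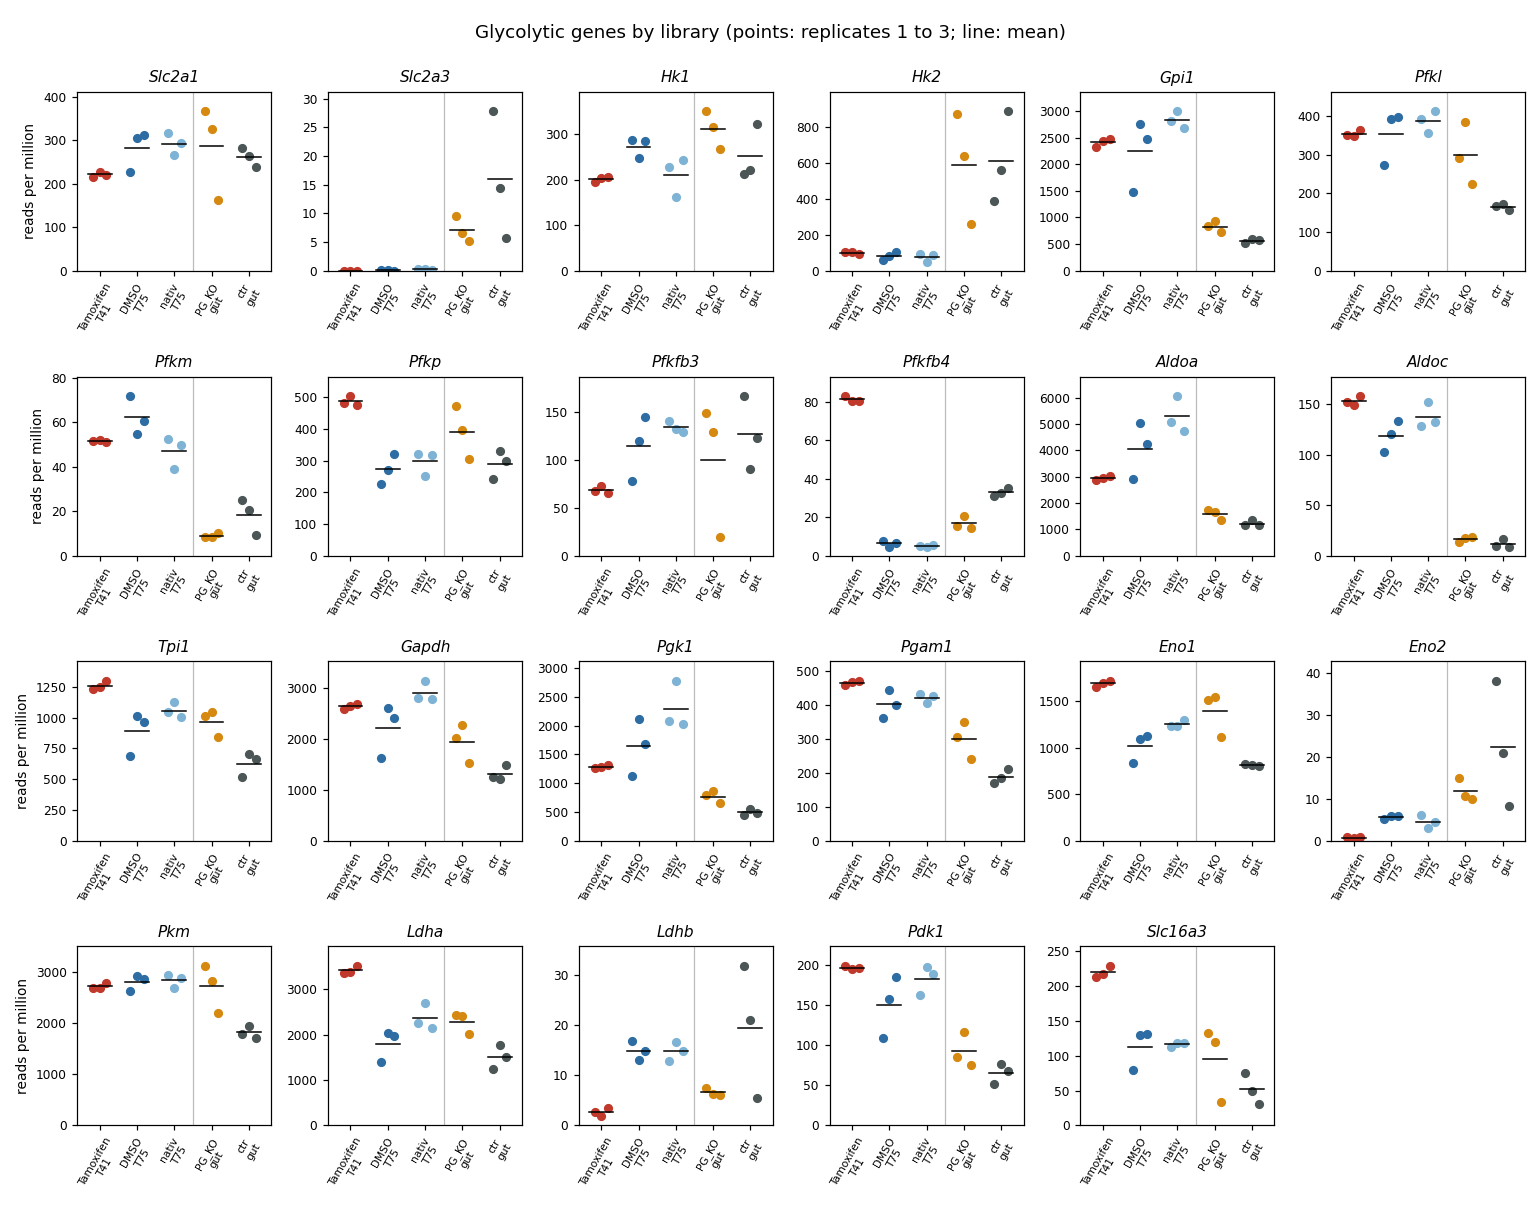
CPM (linear axis from 0) of the 23 glycolytic genes in each of 15 libraries, by group, with points for replicates 1 to 3 in order and a line at the mean. Pfkfb4 stands at 80.4 to 83.1 CPM in Tamoxifen organoids, above all other groups; DMSO replicate 1 is the lowest DMSO library for Gpi1, Aldoa, Pgk1 and Ldha.

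Tamoxifen organoids were first set against DMSO organoids, low Jup against more Jup in culture. Of 22 glycolytic genes tested, 12 passed an adjusted p of 0.05 in edgeR's quasi-likelihood F test, with Benjamini-Hochberg adjustment over all 16449 genes tested in the table: 6 rose and 6 fell. The remaining glycolytic gene, Slc2a3, had too few reads to be tested. Of the 12 other hypoxia-responsive genes 7 passed, 1 higher and 6 lower. In this comparison 66.3% of all tested genes passed, 33.9% higher and 32.4% lower, so that the number of members called is no larger than in the table as a whole. All Tamoxifen libraries lay above all DMSO libraries for 10 of the 34 members and below them for 11, against 41.8% and 34.4% of all tested genes (76.1% in either direction). The median log2 change was 0.09 over the glycolytic genes and -0.57 over the other hypoxia-responsive genes, against 0.02 over all tested genes. Without DMSO replicate 1 the glycolytic count was 14, with 5 higher and 9 lower, and the hypoxia count 10, with 1 higher and 9 lower, and the medians were -0.10 and -0.74.

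Among glucose transporters, Slc2a1, the common basal transporter of most cells, stood at 216, 228 and 221 CPM in Tamoxifen and 228, 306 and 312 CPM in DMSO organoids, a log2 change of -0.42 ± 0.13 SE (adjusted p = 0.0142 with edgeR). All 3 Tamoxifen libraries lay below the DMSO libraries, the nearest of which was replicate 1, by a narrow margin, and the call was lost without Tamoxifen replicate 1 or DMSO replicate 2. Slc2a3, a transporter best known from neurons, was at 0 reads in all 3 Tamoxifen libraries and at 0.101, 0.159 and 0 CPM in DMSO and 0.262, 0.381 and 0.104 CPM in nativ organoids, all near the floor, and no fold is given.

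Of the first steps of glycolysis, 2 genes rose, 3 fell and 5 did not pass, with the largest change in a regulator. Pfkfb4 makes and breaks down fructose 2,6-bisphosphate, the activator of phosphofructokinase, and stood at 83.1, 80.5 and 80.4 CPM in Tamoxifen and 7.85, 4.25 and 6.82 CPM in DMSO organoids. The groups lay far apart, and the log2 change was 3.62 ± 0.17 SE (adjusted p = 1.85e-08 with edgeR), a 12.3-fold difference and the largest of any member. Pfkfb3, the isoenzyme that mainly makes the activator, stood at 67.6, 73.0 and 65.6 CPM in Tamoxifen and 77.7, 119.7 and 144 CPM in DMSO, and fell, at -0.80 ± 0.19 SE (adjusted p = 0.00327 with edgeR), with no overlap.
The platelet-type phosphofructokinase Pfkp rose, at 482, 505 and 477 CPM in Tamoxifen and 225, 272 and 322 CPM in DMSO organoids, a log2 change of 0.77 ± 0.13 SE (adjusted p = 3.68e-04 with edgeR). The muscle type Pfkm fell, at -0.34 ± 0.10 SE (adjusted p = 0.0118 with edgeR), and the liver type Pfkl gave -0.08 ± 0.14 SE (adjusted p = 0.663 with edgeR). Of the hexokinases, which trap glucose in the cell, Hk1 fell at 195, 204 and 206 CPM in Tamoxifen and 287, 247 and 284 CPM in DMSO, with -0.50 ± 0.11 SE (adjusted p = 0.00182 with edgeR), while Hk2 gave 0.23 ± 0.20 SE (adjusted p = 0.329 with edgeR). Gpi1, the isomerase that follows, gave 0.03 ± 0.23 SE (adjusted p = 0.906 with edgeR), and the aldolases Aldoa and Aldoc, which split the sugar, gave -0.55 ± 0.23 SE (adjusted p = 0.0605 with edgeR) and 0.30 ± 0.14 SE (adjusted p = 0.0752 with edgeR). None of these last members passed, and Aldoc was nevertheless higher in all 3 Tamoxifen libraries than in any DMSO library.

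Of the enzymes from triose to pyruvate, Eno1, the common enolase, stood at 1657, 1698 and 1721 CPM in Tamoxifen and 831, 1094 and 1129 CPM in DMSO organoids, a log2 change of 0.66 ± 0.15 SE (adjusted p = 0.00246 with edgeR). Eno2, the enolase of neurons, was rare, at 0.769, 0.520 and 0.859 CPM in Tamoxifen and 5.21, 5.76 and 5.74 CPM in DMSO, and gave -3.03 ± 0.27 SE (adjusted p = 2.64e-06 with edgeR). The enolases therefore moved in opposite directions, in every library. Tpi1, triosephosphate isomerase, gave 0.43 ± 0.17 SE (adjusted p = 0.0470 with edgeR) and lost its call without any 1 of 5 libraries (each Tamoxifen library, DMSO 1 and DMSO 3). Gapdh gave 0.18 ± 0.20 SE (adjusted p = 0.455 with edgeR), Pgk1 -0.43 ± 0.25 SE (adjusted p = 0.155 with edgeR), Pgam1 0.14 ± 0.11 SE (adjusted p = 0.301 with edgeR) and Pkm, pyruvate kinase, -0.11 ± 0.13 SE (adjusted p = 0.468 with edgeR), none of which passed.

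Several of the most abundant members were among those not called. Gapdh ranged over 2581 to 2685 CPM in Tamoxifen, 1625 to 2606 CPM in DMSO and 2777 to 3136 CPM in nativ organoids, and Pkm over 2688 to 2794, 2629 to 2925 and 2695 to 2941 CPM in the same order. Gpi1 ranged over 2330.1 to 2473 CPM in Tamoxifen, 1482 to 2763 CPM in DMSO and 2691 to 3004 CPM in nativ organoids. In each of these the Tamoxifen range was the narrowest, and DMSO and Tamoxifen libraries overlapped. Of the less abundant members, Hk2 ranged over 95.1 to 103 CPM in Tamoxifen and 58.7 to 103 CPM in DMSO organoids, and in gut over 259.9 to 870.4 CPM in PG_KO and 387 to 891 CPM in ctr, where the libraries of each group differed widely.

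Reads of several of these enzymes are shared with close copies, and 23 of the 35 members have a value that is not whole in some library. The Eno1 copy Eno1b held 19.0% to 20.02% of the reads of the pair in every library, Pgk1-rs7 28.1% to 29.1% of those with Pgk1, and Pgam1-ps2 37.3% to 40.2% of those with Pgam1. These 3 shares stayed nearly constant over groups, while Pgam1-ps1, a copy of Pgam1 with fewer reads, held 4.85% to 5.70% in the organoid libraries and 6.12% to 10.2% in the gut libraries. The levels of these enzymes are therefore uncertain.

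At the end of the pathway, Ldha, the lactate dehydrogenase subunit that favours lactate, stood at 3358, 3386 and 3525 CPM in Tamoxifen and 1389, 2045 and 1967 CPM in DMSO organoids, a log2 change of 0.85 ± 0.20 SE (adjusted p = 0.00335 with edgeR). Ldhb, the subunit that favours pyruvate, stood at 2.59, 1.95 and 3.43 CPM in Tamoxifen and 16.9, 13.0 and 14.8 CPM in DMSO, and gave -2.55 ± 0.22 SE (adjusted p = 2.16e-06 with edgeR). Both separated without overlap, in opposite directions. Slc16a3, which exports lactate, rose at 213, 217 and 229 CPM in Tamoxifen and 79.1, 129 and 131 CPM in DMSO, with 0.89 ± 0.18 SE (adjusted p = 0.00125 with edgeR). Pdk1, the kinase that closes pyruvate dehydrogenase and so keeps pyruvate out of the mitochondrion, gave 0.32 ± 0.18 SE (adjusted p = 0.144 with edgeR) and did not pass, with all 3 Tamoxifen libraries above DMSO.

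**Figure D2:**
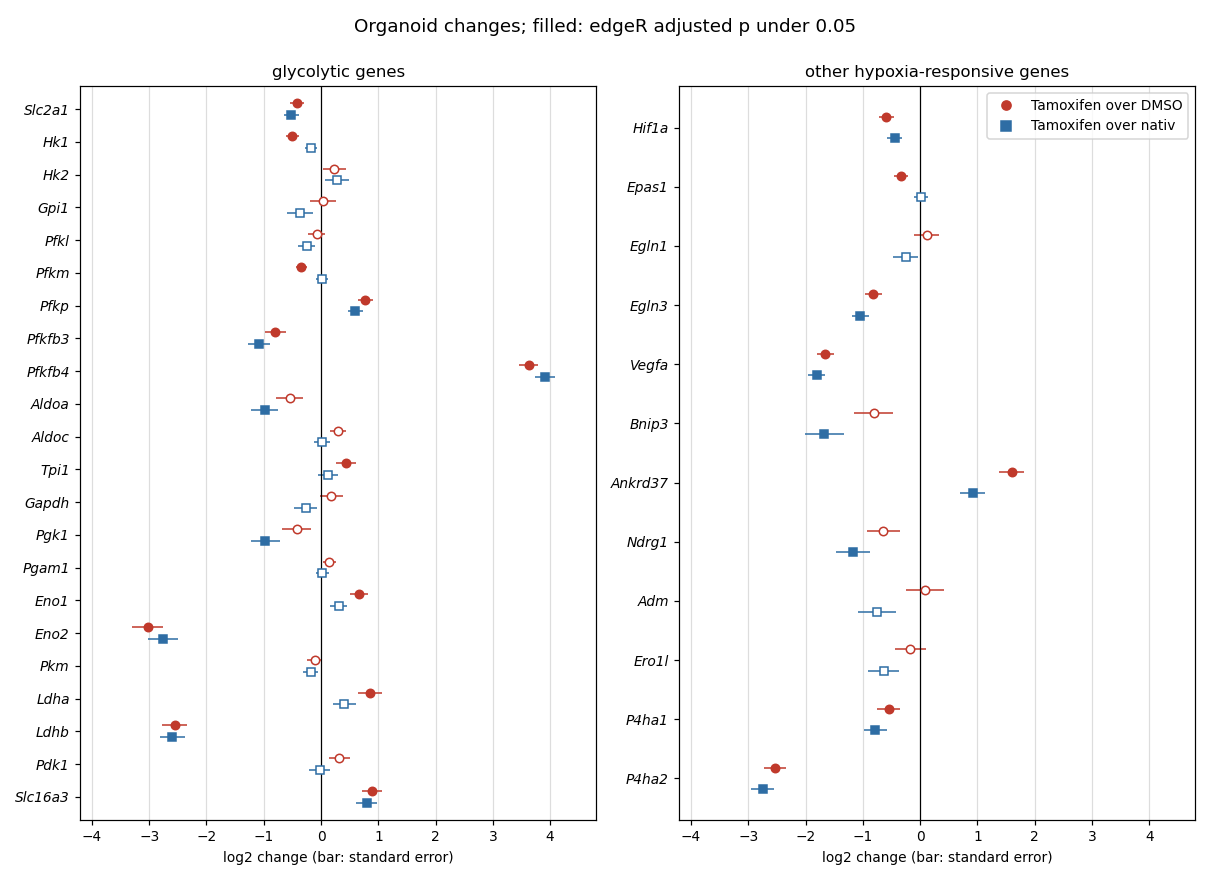
Fitted log2 change with its standard error for the 34 members tested in organoids, Tamoxifen over DMSO (circles) and Tamoxifen over nativ (squares), filled where edgeR's adjusted p is under 0.05. Pfkfb4 (3.62 and 3.90) lies far to the right, and Eno2, Ldhb, P4ha2 and Vegfa lie left of -1.5 in both comparisons, which share the Tamoxifen libraries.

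Of the oxygen sensing genes, 3 of 4 fell. Hif1a stood at 102, 105 and 94.2 CPM in Tamoxifen and 129, 134 and 170.4 CPM in DMSO organoids, a log2 change of -0.59 ± 0.13 SE (adjusted p = 0.00254 with edgeR), and Epas1, which encodes the alpha subunit best known from endothelium, gave -0.34 ± 0.12 SE (adjusted p = 0.0274 with edgeR). Egln3, the hydroxylase whose own gene is a target of the factors it restrains, stood at 407, 419 and 425 CPM in Tamoxifen and 568, 759.5 and 767 CPM in DMSO, with -0.81 ± 0.15 SE (adjusted p = 5.73e-04 with edgeR), and Egln1, the main oxygen sensor, gave 0.11 ± 0.22 SE (adjusted p = 0.665 with edgeR). For Hif1a, Epas1 and Egln3 every Tamoxifen library lay below every DMSO library, although Epas1 lost its call when any library other than DMSO 1 was left out or when library totals were used in place of TMM factors.

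Of the 8 other targets 3 fell, 1 rose and 4 did not pass. P4ha2, a subunit of the collagen prolyl hydroxylase, stood at 37.9, 39.3 and 37.1 CPM in Tamoxifen and 139.8, 243 and 247 CPM in DMSO organoids, a log2 change of -2.54 ± 0.20 SE (adjusted p = 9.91e-07 with edgeR). Vegfa, the growth factor of blood vessels, stood at 174, 165 and 157 CPM in Tamoxifen and 420.0, 497 and 573 CPM in DMSO, with -1.66 ± 0.15 SE (adjusted p = 2.98e-06 with edgeR). In both genes the 3 Tamoxifen libraries lay close together and far below DMSO. P4ha1, the sister subunit of P4ha2, gave -0.55 ± 0.20 SE (adjusted p = 0.0288 with edgeR); its DMSO replicate 1, at 119 CPM, lay below the Tamoxifen libraries, and its call was lost without any 1 of the other 5 libraries. Ankrd37, an ankyrin repeat protein and known hypoxia target, was higher, at 68.3, 65.5 and 62.6 CPM in Tamoxifen and 16.6, 23.03 and 22.2 CPM in DMSO, with 1.597 ± 0.22 SE (adjusted p = 8.53e-05 with edgeR) and no overlap.

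The other 4 targets did not pass in edgeR, and for all of them DMSO replicate 1 lay apart from its group. Bnip3, a mitophagy receptor, stood at 121, 121 and 122 CPM in Tamoxifen and 96.9, 259.7 and 249 CPM in DMSO organoids, with -0.81 ± 0.34 SE (adjusted p = 0.0557 with edgeR). Ndrg1, a stress-induced gene of differentiation, stood at 550.0, 555 and 568 CPM in Tamoxifen and 398, 979 and 1102 CPM in DMSO, with -0.64 ± 0.30 SE (adjusted p = 0.0779 with edgeR). In both genes DMSO replicate 1 was below and replicates 2 and 3 were above all Tamoxifen libraries. DESeq2, which called 67.2% of all genes it tested, called both lower, with adjusted p = 0.0225 for Bnip3 and 0.0405 for Ndrg1. In edgeR, Bnip3 was also called with a replicate block or with only the 6 compared libraries. Ero1l, the oxidase that drives disulfide formation in the endoplasmic reticulum, gave -0.17 ± 0.27 SE (adjusted p = 0.593 with edgeR), and Adm, the vasodilator adrenomedullin, gave 0.08 ± 0.33 SE (adjusted p = 0.845 with edgeR). Without DMSO replicate 1, Bnip3, Ndrg1 and Ero1l passed as lower, with log2 changes of -1.16, -0.98 and -0.49, as did the glycolytic genes Aldoa, Pfkl and Pgk1.

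**Figure D3:**
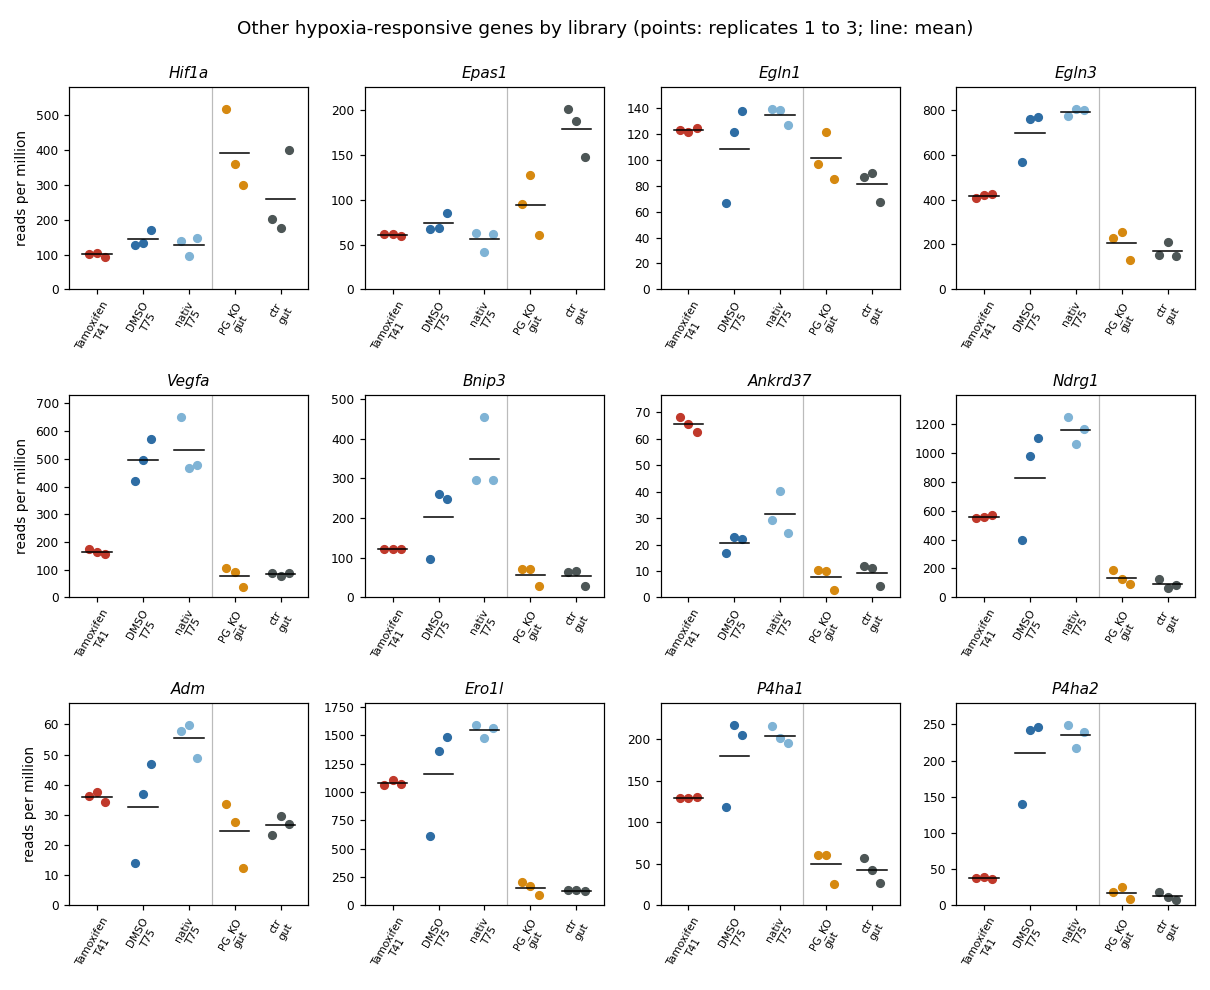
CPM (linear axis from 0) of the 12 other hypoxia-responsive genes in each of 15 libraries, by group, with points for replicates 1 to 3 in order and a line at the mean. Ankrd37 is highest in Tamoxifen organoids; Vegfa and P4ha2 are highest in the T75 groups; the first DMSO point is low for Bnip3, Ndrg1, Adm and Ero1l, and the third PG_KO point is low for Vegfa, Bnip3 and Adm.

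Against the nativ organoids, which share code T75 and the Tamoxifen libraries with the comparison above, 9 of 22 glycolytic genes passed, 3 higher and 6 lower, and 8 of the 12 other hypoxia-responsive genes, 1 higher and 7 lower. Of all tested genes 66.9% passed, 33.5% in each direction. The libraries of the groups lay apart for 9 members above and 17 below nativ, against 43.0% and 31.6% of all tested genes (74.6% in either direction). The median log2 change was -0.10 over glycolytic genes and -0.77 over the others, against 0.01 over all genes. Scaling by library totals moved the median of all genes to 0.13 and the glycolytic median to 0.02, with 11 glycolytic genes called.

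The smallest p-values belonged to Pfkfb4, at 4.91, 4.47 and 5.67 CPM in nativ organoids and 3.90 ± 0.17 SE (adjusted p = 1.24e-08 with edgeR), P4ha2 at -2.75 (SE 0.20), Vegfa at -1.80 (SE 0.15), Ldhb at -2.60 (SE 0.22), Eno2 at -2.76 (SE 0.27) and Egln3 at -1.05 (SE 0.15), with edgeR adjusted p-values up to 9.73e-05. The calls of 10 members differed from the comparison with DMSO. Hk1, Pfkm and Epas1 did not pass here, at -0.17, 0.02 and 0.02, and neither did Tpi1, Eno1 and Ldha, at 0.13, 0.31 and 0.40, although those 3 were higher in each Tamoxifen library than in any nativ library. Aldoa and Pgk1 passed as lower, at -0.99 ± 0.24 SE (adjusted p = 0.00347 with edgeR) and -0.98 ± 0.25 SE (adjusted p = 0.00559 with edgeR). Aldoa stood at 2866, 2936 and 3010.1 CPM in Tamoxifen and 5091, 6077 and 4755 CPM in nativ organoids, without overlap. Bnip3 and Ndrg1 also passed, at -1.67 ± 0.35 SE (adjusted p = 0.00146 with edgeR) and -1.17 ± 0.30 SE (adjusted p = 0.00512 with edgeR), with Bnip3 at 121, 121 and 122 CPM in Tamoxifen and 296, 455 and 296 CPM in nativ organoids, all of the nativ libraries far above. Without nativ replicate 2 the glycolytic count was 12, with Eno1, Ldha and Hk1 also called.

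Wider lists of the same pathways give the surroundings of these members. Of 39 other genes of glucose and fructose metabolism 37 were tested in organoids, of which 27 rose and 4 fell in Tamoxifen over DMSO (28 and 3 over nativ). Of all tested genes, 33.9% were higher and 32.4% lower over DMSO, and 33.5% were called in each direction over nativ. Those with the smallest p among the 27 that rose were Hkdc1, a hexokinase-like enzyme, at 236 ± 8.27 CPM in Tamoxifen and 1.45 ± 0.507 CPM in DMSO organoids (SD, n = 3 each here), Fbp2, a fructose bisphosphatase, at 148 ± 1.09 and 2.00 ± 0.492 CPM, and the fructose transporter Slc2a5 and the glucose transporter Slc2a2, at 85.5 ± 5.60 and 114 ± 9.35 CPM in Tamoxifen and 0.247 ± 0.140 and 0.178 ± 0.154 CPM in DMSO. These are known genes of sugar uptake and handling in small intestinal enterocytes or liver, and moved beside the enterocyte markers given above. The 4 that fell were Ldhd at -1.10 (SE 0.13), Pdk4 at -2.49 (SE 0.39), Pck2 at -0.74 (SE 0.12) and G6pdx, the first enzyme of the pentose phosphate branch, at -0.64 (SE 0.17). Of 44 other genes of the hypoxia response 41 were tested, 9 higher and 19 lower in Tamoxifen over DMSO (8 and 23 over nativ), with median log2 changes of -0.38 and -0.55. The transferrin receptor Tfrc and the lipase inhibitor Angptl4 were higher, at 1.47 (SE 0.12) and 2.30 (SE 0.20), as were Nos2 at 3.43 (SE 0.48) and Ndufa4l2 at 3.13 (SE 0.66). The haem oxygenase Hmox1, at -3.41 (SE 0.11), Rora, at -3.68 (SE 0.19), and Plin2, a coat protein of lipid droplets, at -1.11 (SE 0.09), were lower.

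Ratios between related members were taken within a library, with 0.5 reads added to each gene. They do not depend on the scaling between libraries. The log2 ratio of Ldhb to Ldha was -10.36 ± 0.38 in Tamoxifen and -6.90 ± 0.49 in DMSO organoids (SD, n = 3 each), and that of Pfkfb4 to Pfkfb3 was 0.24 ± 0.09 in Tamoxifen and -4.17 ± 0.78 in DMSO. The Tamoxifen organoids held more reads of Pfkfb4 than of Pfkfb3, and the DMSO organoids far more of Pfkfb3. The log2 ratio of P4ha2 to P4ha1 was -1.76 ± 0.05 in Tamoxifen and 0.22 ± 0.06 in DMSO, with DMSO replicate 1, low in both genes, at 0.24 beside 0.16 and 0.27 in replicates 2 and 3. Of 14 such ratios 12 did not overlap between Tamoxifen and DMSO and 14 between Tamoxifen and nativ. The exact two-sided permutation test gave p = 0.1 for each of these, the smallest that 3 against 3 allows, and adjusted p = 0.117 and 0.1 over the 14 ratios, so that no ratio could pass. The ratio of Slc2a3 to Slc2a1 in Tamoxifen organoids is set by the 0.5 reads added, since Slc2a3 had 0 reads there. With 5 reads added, its difference in log2 ratio from nativ was -0.86 in place of -3.42. That of Slc2a2 to Slc2a1, low in nativ, was 8.60 in place of 9.35.

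**Figure D4:**
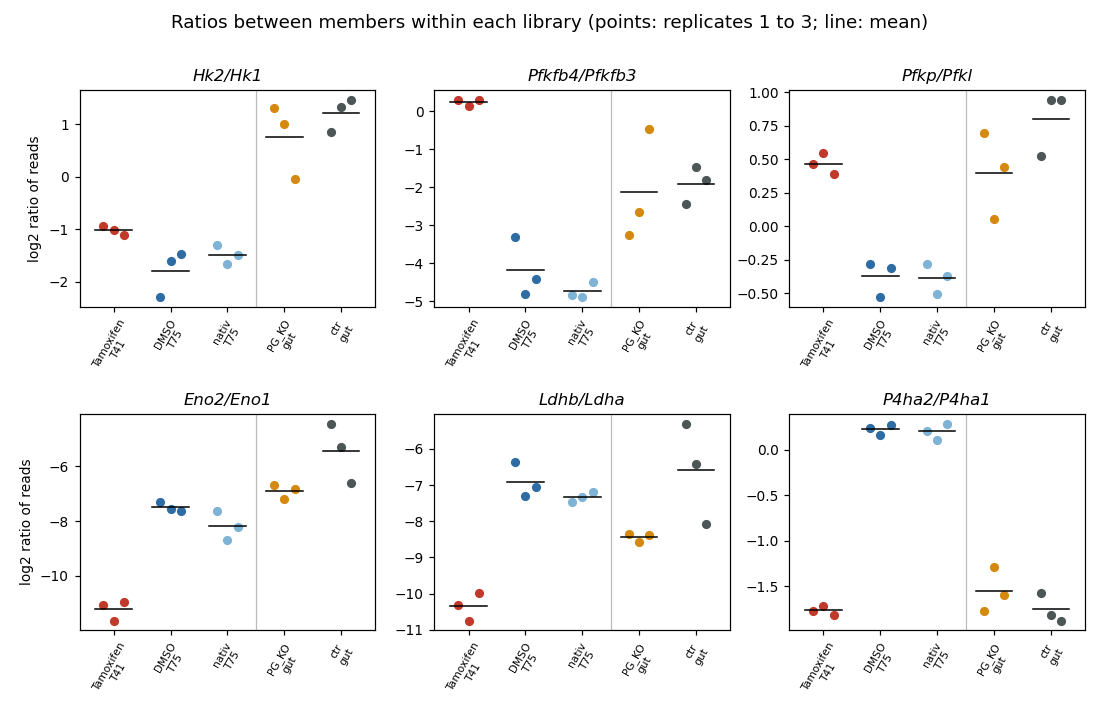
Log2 ratio of reads (0.5 added to each) for 6 pairs of members in each library, by group, with points for replicates 1 to 3 in order and a line at the mean; each panel has its own axis. The P4ha2 to P4ha1 ratio lies near 0.2 in both T75 groups and below -1.2 in Tamoxifen organoids and in both gut groups.

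DMSO organoids were then set against nativ organoids, within code T75. No member passed with edgeR, nor with DESeq2, an alternative count test, where edgeR called 0% of 16449 genes and DESeq2 1.05% of 14532. At an unadjusted p under 0.05 were 8 members, 4 glycolytic and 4 of the others, against 14.6% of all tested genes (7.33% higher and 7.31% lower). The libraries lay apart for 3 members above and 7 below nativ, against 7.08% and 7.02% of all genes (14.1% in either direction). Log2 changes were negative for 17 of 22 glycolytic genes, with a median of -0.17, and for 10 of 12 other hypoxia-responsive genes, with a median of -0.30, against -0.01 over all genes. Without DMSO replicate 1 these medians were -0.05 and -0.10.

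The members with the smallest p did not point one way. Pfkm, Hk1 and Epas1 were higher in DMSO, at 0.36 (SE 0.10), 0.33 (SE 0.11) and 0.36 (SE 0.12), with edgeR adjusted p-values of 0.291, 0.295 and 0.295. Ankrd37, Bnip3 and Adm were lower, at -0.68 (SE 0.22), -0.86 (SE 0.34) and -0.83 (SE 0.33), with edgeR adjusted p-values of 0.294, 0.310 and 0.313. Adm stood at 13.9, 36.8 and 46.7 CPM in DMSO and 57.8, 59.8 and 48.9 CPM in nativ organoids, with all DMSO libraries below the nativ ones and replicate 1 lowest by far. None of the 14 ratios passed, and 3 ratios did not overlap. None of the wider lists held a gene called by edgeR. Those with the smallest p there were Hkdc1 at -0.62 (SE 0.19), Pdp2 at 0.49 (SE 0.17), Edn1, the vasoconstrictor endothelin, at -0.58 (SE 0.13) and Car12 at 0.76 (SE 0.19). Of these, DESeq2 called Edn1 and Car12, with adjusted p = 0.0201 and 0.0278, where it called 1.05% of all genes.

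In gut, the PG_KO libraries, titled with DSS, were set against the ctr libraries, titled without it. Many glycolytic enzymes had higher values in PG_KO than in ctr gut, without overlap for 9 of them, but no member passed after adjustment. With edgeR 0% of 18043 genes passed, whereas 15.0% had an unadjusted p under 0.05 (5.27% higher and 9.72% lower). Among these were 12 of the 23 glycolytic genes, 9 higher and 3 lower, and 1 of the 12 others, lower. DESeq2 called 2.76% of 16981 genes, and Pfkfb4, Eno1 and Pfkl of the members. All PG_KO libraries lay above all ctr libraries for 9 of 23 glycolytic genes and for 0 of the 12 others, against 9.97% of all tested genes. They lay below them for 1 gene of each list, Pfkfb4 and Epas1, against 8.67% (18.6% in either direction). The median log2 change was 0.51 over glycolytic genes and 0.26 over the others, against -0.03 over all genes.

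The 9 genes were Gpi1, Pfkl, Tpi1, Gapdh, Pgk1, Pgam1, Eno1, Pkm and Ldha. Eno1 stood at 1512, 1541 and 1119 CPM in PG_KO and 825, 811 and 799 CPM in ctr gut, a log2 change of 0.79 ± 0.19 SE (adjusted p = 0.330 with edgeR). Pfkl stood at 291, 383 and 225 CPM in PG_KO and 168, 172 and 157 CPM in ctr, with 0.87 ± 0.21 SE (adjusted p = 0.330 with edgeR). In both the ctr libraries lay close together and PG_KO replicate 3 was the lowest of its group. The others of small p gave 0.65 (SE 0.19) for Pgk1, 0.67 (SE 0.20) for Pgam1, 0.57 (SE 0.17) for Gpi1, 0.64 (SE 0.20) for Tpi1, 0.60 (SE 0.20) for Pkm and 0.61 (SE 0.21) for Ldha, each with an edgeR adjusted p of 0.330. Ldha stood at 2443, 2408 and 2010.0 CPM in PG_KO and 1252, 1784 and 1506 CPM in ctr.

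Pfkfb4 had the smallest p of the members and pointed down, at 15.5, 20.7 and 14.4 CPM in PG_KO and 30.9, 32.6 and 34.996 CPM in ctr gut, with -0.96 ± 0.18 SE (adjusted p = 0.330 with edgeR) and a DESeq2 adjusted p of 0.00458. Epas1 stood at 95.3, 128 and 60.2 CPM in PG_KO and 201, 188 and 147 CPM in ctr, with -0.91 ± 0.28 SE (adjusted p = 0.330 with edgeR). Neither overlapped between groups. Hif1a stood at 518, 359 and 299 CPM in PG_KO and 203, 175 and 399.9 CPM in ctr, where ctr replicate 3 lay among the PG_KO values. Vegfa, at 105, 91.2 and 37.1 CPM in PG_KO and 86.9, 78.0 and 89.8 CPM in ctr, and P4ha2, at 17.9, 25.1 and 8.58 CPM in PG_KO and 19.1, 12.1 and 7.50 CPM in ctr, overlapped. PG_KO replicate 3 was the lowest gut library for Vegfa, Adm, P4ha1, Pfkfb3, Slc2a1 and Ankrd37; Pfkfb3 stood at 148, 129 and 19.9 CPM in PG_KO and 166, 90.7 and 122 CPM in ctr.

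The gut groups also differed in the tissue they held. The 8 smooth muscle markers summed to 653, 959 and 1267 CPM in PG_KO and to 4549, 3681 and 719 CPM in ctr, and the 9 markers of enteric neurons and glia to 144, 98.4 and 121 CPM in PG_KO and 378, 167 and 129 CPM in ctr, so that ctr replicates 1 and 2 stood apart in smooth muscle markers, and ctr replicate 3 lay within the PG_KO range. In 2 other lists of cell type markers all 3 ctr libraries lay apart from PG_KO, as they did for the cell cycle markers below. The 6 markers of T and B cells summed to 70.4, 87.3 and 93.3 CPM in PG_KO and 403, 283 and 143 CPM in ctr. The 13 markers of stomach, bile duct and pancreas, 2 of them at 0 reads, summed to 530, 417 and 538 CPM in PG_KO and 262, 134 and 366 CPM in ctr. The part of these in the gut values was not tested. Ldhb, at 7.49, 6.25 and 5.98 CPM in PG_KO and 31.8, 21.0 and 5.55 CPM in ctr, Pfkm, at 8.21, 8.47 and 10.4 CPM in PG_KO and 25.1, 20.3 and 9.22 CPM in ctr, Eno2, at 14.9, 10.6 and 9.88 CPM in PG_KO and 38.1, 20.9 and 8.18 CPM in ctr, and Slc2a3, at 9.51, 6.53 and 5.09 CPM in PG_KO and 27.9, 14.4 and 5.66 CPM in ctr, followed the same order of ctr libraries. These are isoforms known from muscle, heart or neurons, and the part of tissue makeup in their values was not tested. Without ctr replicate 3, edgeR called Ldhb and Pfkm lower. The 9 cell cycle markers summed to 1267, 1608 and 1564 CPM in PG_KO and 813, 849 and 1257 CPM in ctr. All PG_KO libraries lay above all ctr libraries here, by a narrow margin. The 11 markers of intestinal epithelium summed to 20014.8, 15732.0 and 18959 CPM in PG_KO and 10316, 13115 and 17351 CPM in ctr, with overlap. The part of both lists in the values of the 9 glycolytic genes was not tested. At an unadjusted p under 0.05, the number of glycolytic genes was 5 to 15 when each gut library was left out in turn, lowest without PG_KO replicate 2 (7.02% of all genes) and highest without ctr replicate 3 (35.2% of all genes), and Eno1, Pfkl, Pgk1, Pgam1 and Pfkfb4 were among them in each of the 6 fits.

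Of the wider lists in gut none held a gene that passed with edgeR. Those with the smallest p were Pck1 at -1.89 (SE 0.53), the lactate and butyrate carrier Slc16a1 at 0.58 (SE 0.18), Ak4 at -1.16 (SE 0.44) and Fam162a at 0.51 (SE 0.20), with edgeR adjusted p-values of 0.330. Of these, DESeq2 called Pck1, with adjusted p = 0.0255, where it called 2.76% of all genes. Of the 14 ratios 4 did not overlap: Ldhb to Ldha, Pfkm to Pfkl, Eno2 to Eno1 and Epas1 to Hif1a, all lower in PG_KO, the last at -2.08 ± 0.52 in PG_KO and -0.45 ± 0.86 in ctr (SD, n = 3 each, exact permutation p = 0.1, the smallest possible, adjusted p = 0.35).

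Whether members changed differently in gut (PG_KO over ctr) and in organoids (Tamoxifen over DMSO) was tested on the difference of these contrasts, which share no samples, by fitting the 12 libraries together with edgeR. It passed for 11 of 35 members, 9 higher and 2 lower in gut, against 36.4% of all 19141 tested genes (15.7% higher and 20.7% lower), so that members were not called more often than other genes. The median difference was 0.44 over glycolytic genes and 0.82 over the others, against -0.14 over all genes. Pfkfb4 differed most, at -4.63 ± 0.27 SE (adjusted p = 6.39e-07 with edgeR), with a change of -0.96 in gut and 3.62 in organoids, opposite directions. P4ha2 gave 2.92 ± 0.57 SE (adjusted p = 0.00236 with edgeR) and Vegfa 1.51 ± 0.44 SE (adjusted p = 0.0202 with edgeR), both lower in organoids and without a called change in gut. Pfkfb4, P4ha2 and Vegfa were called in every leave-one-out fit, whereas the count of members ran from 4 without PG_KO replicate 1 or without DMSO replicate 2 to 17 without PG_KO replicate 3. Eno1 and Ldha, at 0.08 and -0.30, did not pass; that does not show that they changed alike.

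**Figure D5:**
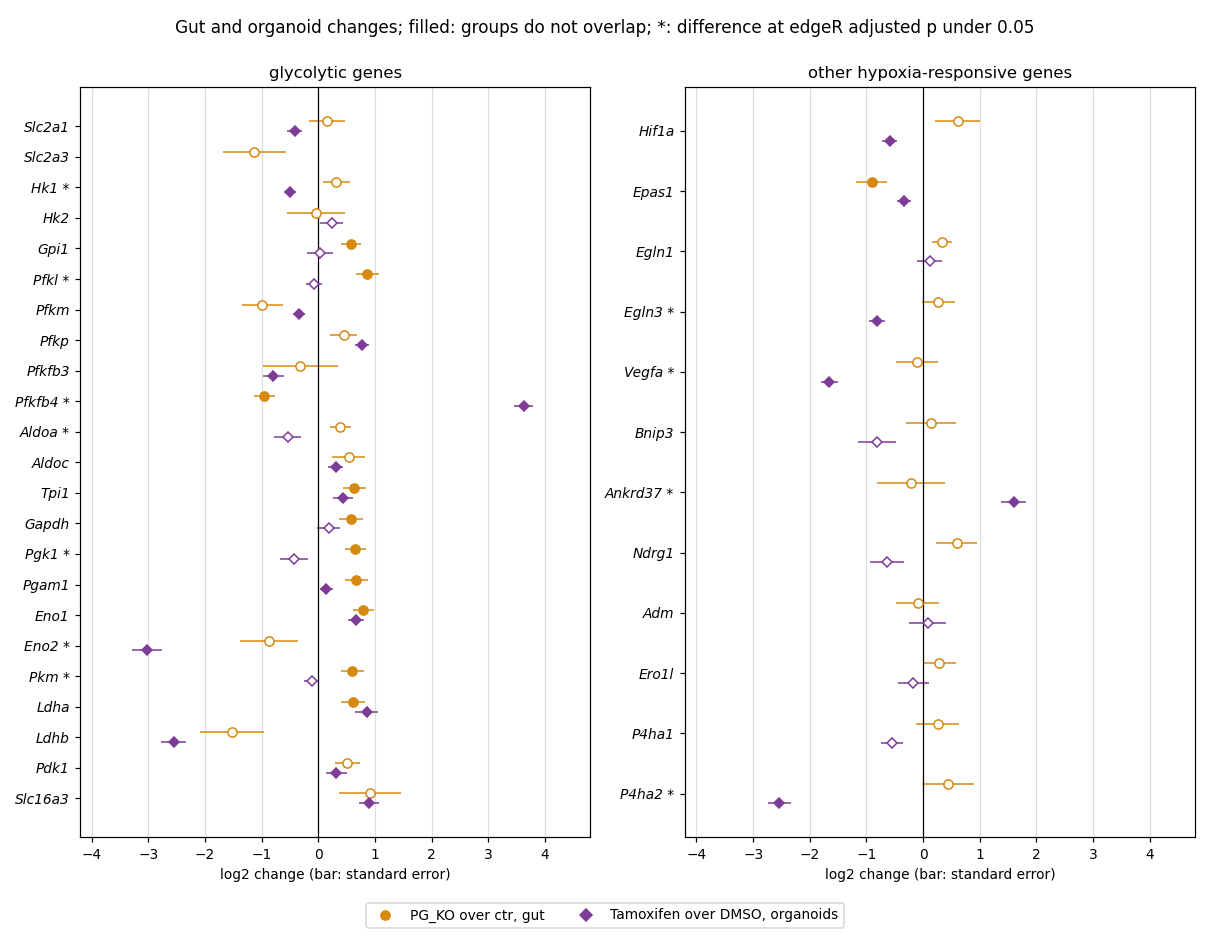
Fitted log2 change with its standard error of the 35 members, PG_KO over ctr in gut (circles) and Tamoxifen over DMSO in organoids (diamonds), filled where all libraries of the groups lie apart; stars mark members whose changes differ at an edgeR adjusted p under 0.05. Filled circles to the right are the 9 glycolytic genes from Gpi1 to Ldha, and Pfkfb4 shows opposite signs.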

How the data were processed

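Per the labels' protocols, RNA was extracted with TRIZOL from organoids and gut (RNA integrity number at least 7.7) and poly(A) libraries were made with the TruSeq kit. The input named is 300 ng for 4 samples and about 200 ng for 2 samples, which does not cover all 15 libraries. Per the submitters' processing notes, the tools named are STAR 2.7.2b, featureCounts 1.6.4, cutadapt 2.5, bcl2fastq 2.20.0.422 and DESeq2, with build GRCm38.p6, in roles that are not given in the sources used here. The deposited values are estimated counts of reads per gene, in which 10.4% to 13.7% of values per library are not whole. How reads of close copies were shared, and whether strand was used, are not given in the sources used here. The authors' combined exon length was used for RPKM.

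Values were rounded to whole reads and tested with edgeR 4.0.16 in R 4.3.3 (TMM factors, filterByExpr, robust quasi-likelihood F test, Benjamini-Hochberg over all tested genes), in 1 fit of the 9 organoid libraries, 1 of the 6 gut libraries and 1 of 12 for the difference between gut and organoids. CPM and RPKM use library totals, 3 reads set the floor, and ratios add 0.5 reads per gene. Reads have no molecular identifiers, so floors cover counting error only. Alternatives were DESeq2 1.42.0, limma-voom (limma 3.58.1), RLE factors, library totals, other low-count filters, the compared libraries alone, a replicate block and leaving out each library. The fitting was tested on simulated data. Python 3.11.15 with pandas 2.3.3, scipy 1.17.1 and matplotlib 3.10.9 did the rest.

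The members and the wider lists were chosen with earlier results of these data known. All 35 members have levels, and all have a change in Tamoxifen over DMSO; elsewhere named are those of smallest p (6 in the other organoid comparisons, 10 in gut), those whose call differed, any singled out for their values, and from the wider lists up to 4 per direction, of which 1 gene is not reported here. Promoter windows are 250 bases before the RefSeq start.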

Additional observations from a re-analysis of the deposited data

Results flagged for a closer look

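The change of 11 of 35 members differed between gut (PG_KO over ctr) and organoids (Tamoxifen over DMSO) in the joint edgeR fit, at adjusted p-values under 0.05. Of all 19141 tested genes 36.4% passed, so that members were not called more often than other genes. The difference, gut minus organoid on the log2 scale, was -4.63 for Pfkfb4 and -1.87 for Ankrd37, both higher in Tamoxifen than in DMSO organoids. It was 2.92 for P4ha2, 1.51 for Vegfa and 1.03 for Egln3 among hypoxia-responsive genes, each lower in Tamoxifen than in DMSO organoids. Among glycolytic genes it was 2.08 for Eno2, 1.03 for Pgk1, 0.89 for Pfkl, 0.88 for Aldoa, 0.77 for Hk1 and 0.66 for Pkm. Only Pfkfb4, P4ha2 and Vegfa were called in every leave-one-out fit, and all the others lost their call in some of these fits. Ankrd37 also lost its call without the low-count filter. Gut tissue and organoids also differ in cell types, in the markers that separate code T41 from T75 and in DSS as titled, whose part was not tested.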

How the results depend on the processing

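The number of organoid members called stayed within 1.5 times its value under every alternative tried. DESeq2 called 3 glycolytic genes in gut, 2 higher and 1 lower, where edgeR called 0. Leaving out 1 library at a time, edgeR called 0 to 2 glycolytic genes in gut, and 4 to 17 members differed between gut and organoids. At an unadjusted p under 0.05, a count added after seeing the data, gut held 5 to 15 glycolytic and 0 to 3 other hypoxia-responsive genes. With a replicate block that last count was 2, against 1 without, and 9 members, against 11, differed between gut and organoids. Correlations of the deviations from group means were computed between same-numbered libraries. The correlations were -0.01, -0.03 and -0.12 for Tamoxifen and DMSO and 0.29, -0.18 and 0.16 for PG_KO and ctr gut. They were 0.09, -0.04 and -0.03 for Tamoxifen and nativ and -0.03, 0.19 and 0.06 for DMSO and nativ. Between libraries of different number the correlations ran from -0.066 to 0.091 for Tamoxifen and DMSO and from -0.306 to 0.215 for PG_KO and ctr gut. With 3 libraries a group, these values cannot settle whether same-numbered libraries were paired.

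Leaving out 1 library turned the sign of small changes that were not called. Over these fits the log2 change in Tamoxifen over DMSO ran from -0.21 to 0.25 for Gpi1, -0.25 to 0.037 for Pfkl, -0.017 to 0.35 for Gapdh, -0.15 to 0.29 for Egln1, -0.30 to 0.41 for Adm and -0.49 to 0.022 for Ero1l, with the lowest value in each case without DMSO replicate 1. In Tamoxifen over nativ it ran from -0.056 to 0.050 for Pfkm and -0.10 to 0.074 for Epas1, lowest without nativ replicate 2. With 3 libraries a group, no single ratio can pass an exact test, and p-values reflect only the spread between libraries.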
